A study of Mus musculus with 300 samples.

Results

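The homologous recombination and Fanconi repair genes are a set of 40 named genes of recombination, interstrand crosslink repair and the DNA damage response, listed by name, with earlier results of these data known. All 40 were found among the 23354 gene names of the expression table, and 39 passed the filter on low values that 10411 genes passed. They were measured in 300 single spermatogonia from ID4-EGFP mice, whose green fluorescent reporter is named for the Id4 gene. The cells came from testes of untreated adult mice, pooled from at least 2 animals per digest, and were sorted for bright CD9 and for EGFP before capture on Fluidigm C1 chips. Their EGFP brightness under the microscope put 79 cells in quartile Q1, the brightest, 78 in Q2, 71 in Q3 and 72 in the dimmest, Q4. The cells were taken as 4 replicate preparations, with 67, 82, 71 and 80 cells. These were read from the number after Seq in the titles, which could instead mark a sequencing run. Strain, exact age and the promoter of the reporter are not given in the sources used here, and no group lacked the reporter.

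Homologous recombination copies the sequence lost at a double-strand break from an intact sister or homologue. The MRE11, RAD50 and NBN complex senses the broken end, CtIP (Rbbp8), EXO1 and BLM expose single-stranded DNA, and BRCA1 with BARD1, PALB2 and BRCA2 prepares it for strand exchange. The Fanconi core complex ubiquitinates FANCD2 and FANCI at stalled forks, while ATM, ATR, CHK1 and CHK2 signal the damage to the cell cycle and to p53. In the testis the same machinery serves both dividing spermatogonia and the programmed breaks of meiosis, and mice that lack Fanconi genes lose germ cells.

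Promoters of Chek1, Hells, Brca1 and Bard1 are shown here, to be read beside their correlations with S phase genes across cells. With Fancd2, for which the promoter table used here has no entry, they are the 5 members with the highest such values. They span 250 bases before to 50 bases after the start in RefSeq (GRCm38.p6), 5′ to 3′ on the gene's strand, and capitals mark a match to 1 of 4 letter strings of the E2F motif, TTTCCCGC, TTTCGCGC, TTTGCCGC and TTTGGCGC, on either strand.
Chek1: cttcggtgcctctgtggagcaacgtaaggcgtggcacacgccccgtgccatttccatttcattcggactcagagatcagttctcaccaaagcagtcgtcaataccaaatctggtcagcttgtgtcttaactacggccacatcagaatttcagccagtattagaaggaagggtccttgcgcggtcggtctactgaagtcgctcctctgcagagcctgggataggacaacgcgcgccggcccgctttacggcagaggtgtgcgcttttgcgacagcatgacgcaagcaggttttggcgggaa
Hells: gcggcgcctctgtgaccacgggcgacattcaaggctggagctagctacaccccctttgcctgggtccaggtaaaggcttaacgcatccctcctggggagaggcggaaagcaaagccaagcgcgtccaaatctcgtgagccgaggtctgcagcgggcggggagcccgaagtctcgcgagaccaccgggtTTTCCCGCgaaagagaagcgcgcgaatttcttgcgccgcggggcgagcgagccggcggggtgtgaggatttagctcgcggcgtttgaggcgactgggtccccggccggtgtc
Brca1: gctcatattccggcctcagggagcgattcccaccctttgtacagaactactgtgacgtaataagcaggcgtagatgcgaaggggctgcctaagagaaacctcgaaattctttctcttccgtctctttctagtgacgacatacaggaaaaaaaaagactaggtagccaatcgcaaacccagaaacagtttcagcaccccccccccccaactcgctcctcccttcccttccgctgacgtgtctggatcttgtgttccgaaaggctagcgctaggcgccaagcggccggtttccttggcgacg
Bard1: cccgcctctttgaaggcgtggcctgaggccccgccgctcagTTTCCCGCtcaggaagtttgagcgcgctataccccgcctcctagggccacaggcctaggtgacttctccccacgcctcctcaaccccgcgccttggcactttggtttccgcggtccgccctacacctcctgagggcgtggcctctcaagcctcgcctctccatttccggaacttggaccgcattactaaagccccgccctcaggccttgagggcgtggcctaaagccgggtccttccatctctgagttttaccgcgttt
These windows lie at chr9:36726609-36726908 (Chek1, minus strand), chr19:38930740-38931039 (Hells, plus strand), chr11:101551906-101552205 (Brca1, minus strand) and chr1:71102923-71103222 (Bard1, minus strand). A promoter was in the table for 31 of the 40 genes. Of these, 9 held at least 1 of the E2F strings, which is 29.03%, against 5.25% of the 7846 tested genes with a promoter and 2.60% of all 27025 genes in the table. The 9 were Hells, Bard1, Dmc1, Mdc1, Brca2, Fancg, Rad51c, Chek2 and Topbp1. In that order, their average correlations with the S phase genes were 0.40, 0.34, 0.31, 0.25, 0.18, 0.17, 0.13, 0.13 and 0.077. Chek1 stood at 0.40 and Brca1 at 0.36, and the median over the 39 tested members was 0.16. Any link between the strings and these correlations was not tested. The match lay 62 bases before the start in Hells and 209 bases before it in Bard1, while the Chek1 and Brca1 windows do not hold these letters. The Chek1 window ends in gcgggaa, so a match to GCGGGAAA, which is TTTCCCGC on the other strand, could cross its edge. Bases past the edge were not searched.

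Values were taken to be FPKM, since the processing notes name Cufflinks and the header names no unit. FPKM divides fragments by transcript length and by library size, so on that reading levels of different genes can be set side by side. The scale used throughout is log2(FPKM + 1). A gene was called detected in a cell at 1 FPKM or more. A value of 0 means that the table lists the gene at 0 there, and no more. Cells had 5541 detected genes on average, and preparation 1 had the fewest, 4368, against 5813, 5572 and 6216 in preparations 2, 3 and 4. Per quartile, averaged over preparations, Q1 cells had 5687 ± 697, Q2 cells 5485 ± 889, Q3 cells 5426 ± 851 and Q4 cells 5356 ± 810 (SD, n = 4). Of 13 spermatogonia markers, Ddx4, Dazl, Uchl1, Mael and Sall4 were detected in 98% to 100% of cells, Zbtb16 in 89.3%, Etv5 in 72%, Lin28a in 67.3% and Gfra1 in 58%. Cdh1, Pou5f1, Tcea3 and Dppa3 were detected in 18.3%, 10%, 7.33% and 6%. At 5 FPKM or more in at least 3 and at least 50% of the list's genes, 250 of 300 cells matched the spermatogonia list, 9 a macrophage or leukocyte list, 4 a spermatid list, 1 a peritubular myoid list and 0 the pachytene spermatocyte, Sertoli, Leydig, endothelial or erythroid list. Of the 5 spermatid genes tested, Tnp1 was higher in Q1 cells than in Q4 cells (3.80 ± 0.46 against 1.99 ± 0.69, SD, n = 4, adjusted p = 0.0138, limma), and its part in any value here was not tested. Preparation was a block in the fit, so p-values measure how quartile differences vary between preparations, not how far the preparations differ in level. The labels do not say which animals gave which preparation, so the source of that variation is not known.

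Most of the repair genes were transcribed in a large share of these spermatogonia, at moderate levels. The 39 tested members were detected in a median of 59.7% of cells (range 21% to 99.7%), against a median of 48.3% over all 10411 genes tested. Their median level was 2.68, against 2.00 over all genes tested, both on the log2(FPKM + 1) scale. A cell held a median of 22 of the 40 genes at 1 FPKM or more, with 8 in the lowest cell and 35 in the highest.

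**Figure D1:**
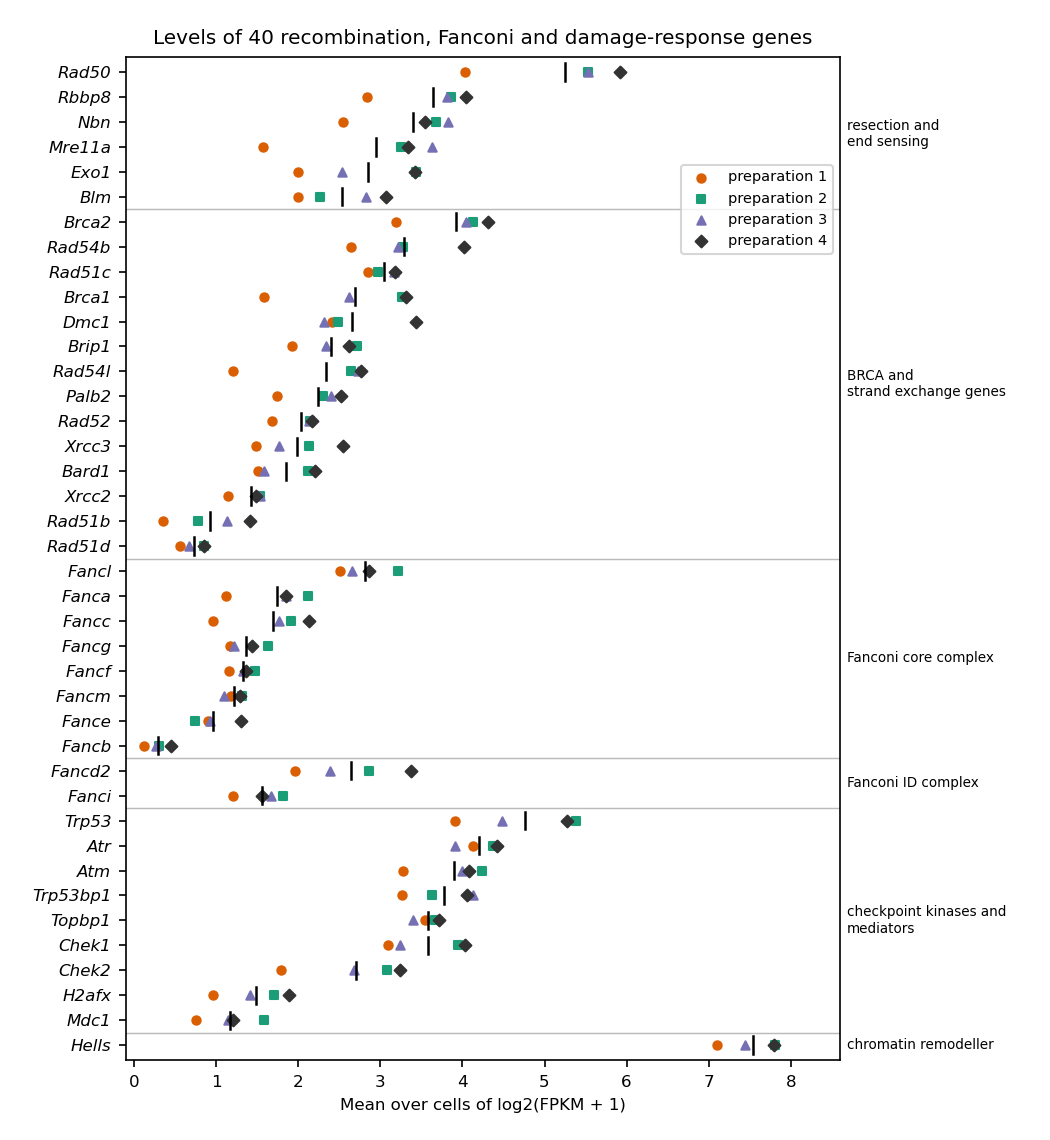
Level of each of the 40 genes, as the mean over cells of log2(FPKM + 1), in each of 4 preparations (points) and averaged over preparations (black bars), grouped by role from top to bottom. Hells stands at 7.54, above every other gene, Rad50 at 5.25 leads the end-sensing genes, and preparation 1 holds the lowest point for most genes.

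The chromatin remodeller gene Hells, a helicase of the SNF2 family needed for DNA methylation at repeats, had the highest level of the 40. Its mean log2(FPKM + 1) was 7.54 ± 0.34 over preparations (SD, n = 4), and it was detected in 299 of 300 cells. Its 10th percentile in the detecting cells was 66.1 FPKM and its 90th 544 FPKM. Hells lies on chromosome 19 from 38930915 to 38971051 (GRCm38, plus strand), and its exons overlap no other annotated gene.

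Among the genes that sense and process broken ends, Rad50, the ATPase of the MRE11 complex, stood highest and was detected in 286 cells. Its partners were detected less widely, Nbn in 207 cells and Mre11a, the nuclease, in 181. The mean levels over preparations were 5.25 ± 0.83 for Rad50, 3.40 ± 0.58 for Nbn and 2.95 ± 0.93 for Mre11a (SD, n = 4). Rbbp8, which starts resection with BRCA1, was detected in 224 cells, the helicase gene Blm in 199 and the exonuclease gene Exo1 in 196. Exons of Mre11a overlap Ankrd49 on the opposite strand, and reads from that gene cannot be told apart in a library that does not mark strand.

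The BRCA and strand exchange genes were uneven. Brca2, a mediator of strand exchange, was detected in 267 of 300 cells (mean 3.92), and Brca1 in 207 (mean 2.69 ± 0.80). Brip1, the BRCA1-bound helicase, was detected in 179 cells, Palb2, which bridges BRCA1 and BRCA2, in 171, and Bard1, the partner of BRCA1, in 157. The strand exchange cofactors spread from Rad51c in 182 cells through Xrcc2 in 108 and Xrcc3 in 104 to Rad51b in 69 and Rad51d in 63. The translocase genes Rad54b and Rad54l, which act during strand exchange, were detected in 196 and 155 cells, and Rad52 in 118. Exons of Rad54b overlap the coding gene Fsbp on the same strand, and those of Rad54l overlap the coding gene Lrrc41 on the opposite strand. Xrcc3 shows how uneven detection can be: where it was detected its median was 62.4 FPKM and its 90th percentile 311 FPKM, and in the other cells it stood below 1 FPKM or at 0. Its exons overlap Klc1 on the opposite strand.

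Dmc1, the recombinase of meiosis, was detected in 164 of these 300 spermatogonia, with a median of 28.98 FPKM in the detecting cells. Its mean level was 1.89, 1.83, 2.65 and 3.36 in Q1 cells of preparations 1 to 4, and 3.08, 2.80, 1.19 and 3.96 in Q4 cells of the same preparations. The Q1 values lay within the range of the Q4 values. The difference was -0.32 (SE 0.42, adjusted p = 0.767, limma), and it was negative in 3 of 4 preparations. Over cells within a preparation, Dmc1 correlated at 0.16 on average with the mean of 23 other meiotic recombination genes (Spearman, range 0.028 to 0.30). With the plain number of genes detected in the cell, Dmc1 correlated at 0.22 (0.13 to 0.34). The part of detection in the value of 0.16 was not tested.

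The Fanconi core complex genes were the most thinly detected. The 7 tested members had a median of 38% detecting cells and a median level of 1.38. Fancl, the ubiquitin ligase subunit, was detected in 179 cells and Fanca in 140, followed by Fancc (121 cells), the translocase gene Fancm (114), Fancf (97), Fancg (90) and Fance (72). Fancb, on the X chromosome, was detected in 22 cells and did not pass the filter on low values, so it entered no count of members past a threshold. Where detected, Fancb had a median of 10.8 FPKM. Of the substrates of the complex, Fancd2 was detected in 181 cells and Fanci in 116. Exons of Fanca, Fancc, Fancf, Fancl, Fancd2 and Fanci overlap a coding gene on the opposite strand.

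The checkpoint genes were among the more widely detected. The median over 9 genes was 78.3% of cells. The kinase genes Atm and Atr were detected in 273 and 255 cells, Trp53bp1, whose product restrains resection, in 269, the ATR activator gene Topbp1 in 240, Chek1 in 216 and Chek2 in 184. Trp53, which encodes p53, was detected in 235 cells and had the second highest mean in FPKM, 116, after Hells with 264 FPKM. On the log2(FPKM + 1) scale Rad50 stood above it, at 5.25 against 4.76 averaged over preparations. The histone variant gene H2afx and the gene of its reader Mdc1, which mark and bind broken chromatin, were detected in 117 and 111 cells.

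Most members stood lowest in 1 preparation. Preparation 1 had the lowest mean for 34 of the 39 tested members (87.2%), and for 76.3% of all genes tested. Preparation 4 had the highest for 23 of 39 (58.97%), against 48.7% of all genes tested. The number of members detected per cell had a median of 18 in preparation 1, against 24, 21 and 27 in preparations 2, 3 and 4. It followed the number of genes detected in the cell, with a Spearman correlation over cells of 0.70 on average within preparations (range 0.66 to 0.73), in which both counts come from the same library. Averaged over preparations, Q1 cells held 22.97 ± 3.75 of the 40, Q2 cells 22.08 ± 4.72, Q3 cells 22.05 ± 3.63 and Q4 cells 22.11 ± 4.07 (SD, n = 4).

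**Figure D2:**
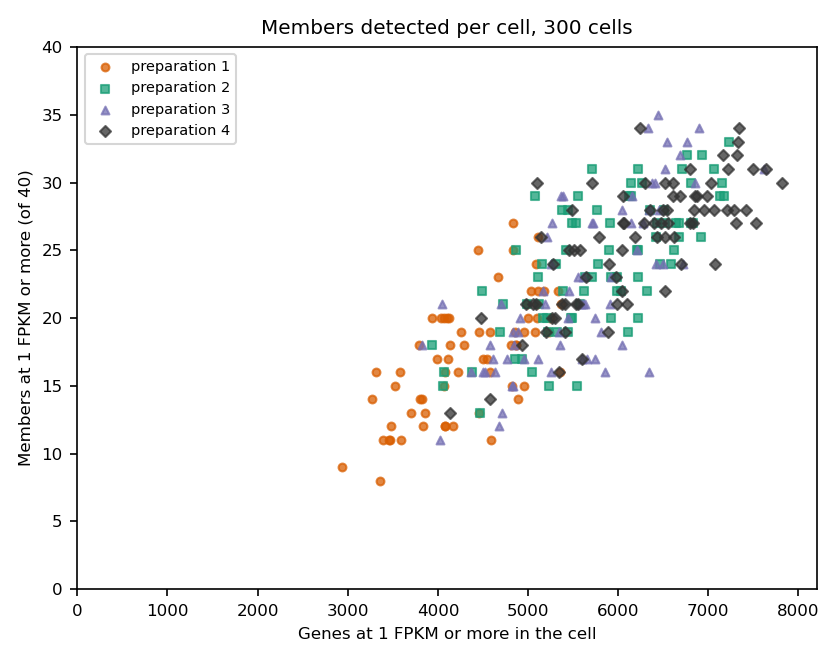
Number of the 40 genes at 1 FPKM or more in each of 300 cells (vertical axis) against all genes at 1 FPKM or more in that cell (horizontal axis), by preparation. The counts run from 8 to 35 and rise with the genes detected, and preparation 1 takes the lower left of the plot.

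EGFP brightness did not separate the repair genes past the threshold. Between Q1 and Q4, 0 of 39 members passed at an adjusted p under 0.05 (limma, adjusted over 10411 genes), where 3.25% of all genes tested passed. At an unadjusted p under 0.05 the count was 1 of 39 (2.56%), against 1702 of 10411 (16.3%). The differences ran from -0.76 (Mre11a) to 0.83 (Rad51c), with 24 above 0 and 15 below. Their median was 0.068, against 0.099 over all genes tested. In the trend over quartiles, counted as 1 step per quartile towards Q1, 0 of 39 members passed, where 4.51% of all genes did, and 1 of 39 passed unadjusted (2.56%, against 17.7% of all genes). Of the 39 members, 3 had 1 sign in all 4 preparations (7.69%, against 22.4% of all genes tested): Trp53bp1 was higher in Q1 in each, and Rad54l and Fance were lower in each.

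A missed threshold does not show equal levels, and the intervals say how large a difference these data allow. The 95% intervals of the 39 differences, unadjusted, reached from -1.69 at the lowest to 1.75 at the highest, with a median half-width of 0.75. All 39 lay within 2 log2 units of 0 on both sides, and 20 lay within 1 unit. A thinly detected gene has little room to differ on this scale, so a narrow interval there need not mean precision. The narrowest half-width was 0.498, for Rad51d, detected in 21% of cells, while that of Hells, the highest member, was 0.501. The part of low levels in these widths was not tested. For comparison, the GDNF co-receptor gene Gfra1, a stem cell marker in the same cells, was higher in Q1 than in Q4 by 3.44 (SE 0.40, adjusted p = 7.81e-06, limma).

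**Figure D3:**
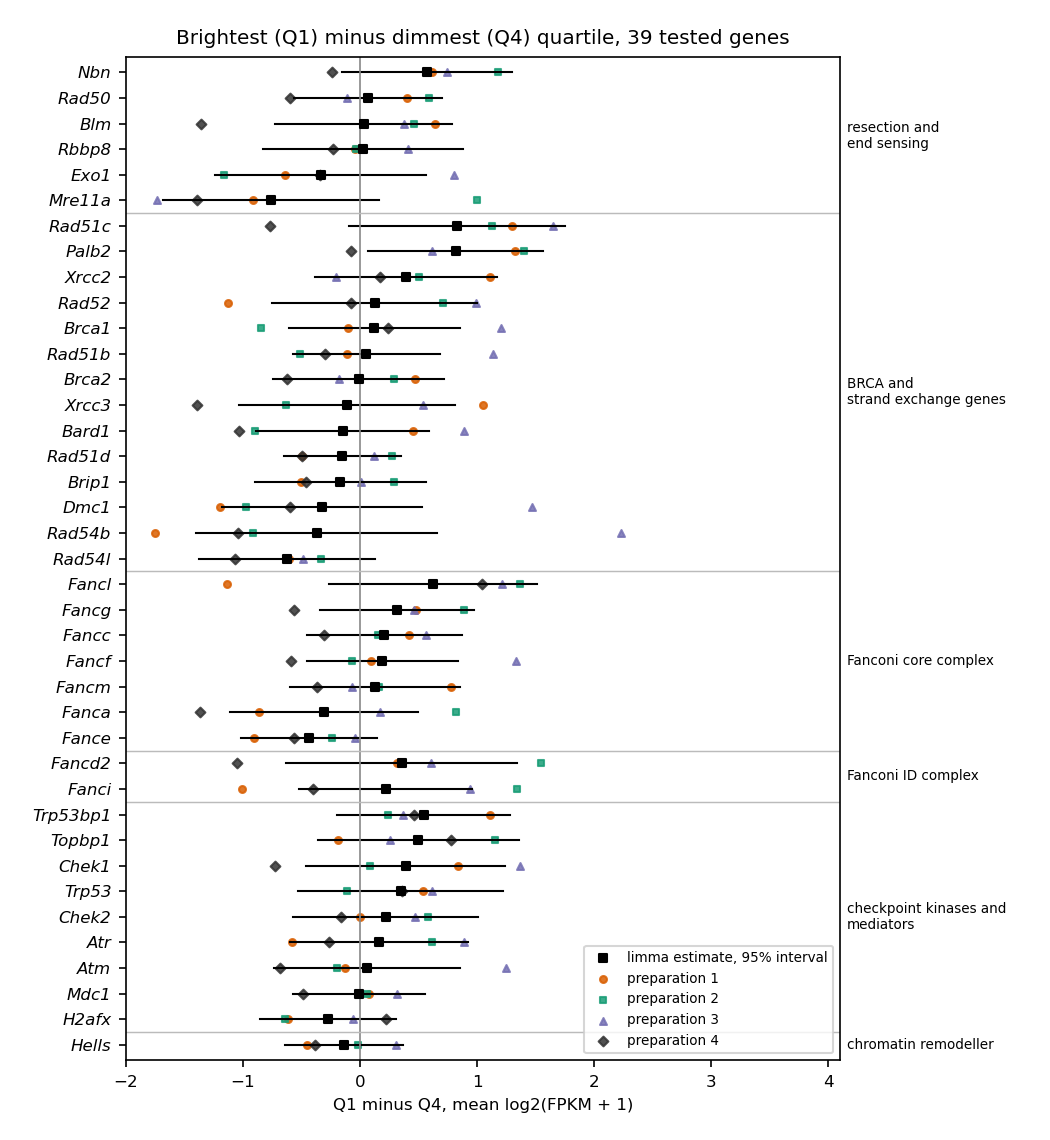
Difference in mean log2(FPKM + 1) between Q1 and Q4 for the 39 tested genes, as the limma estimate (black squares) with its 95% interval (lines) and the difference in each of 4 preparations (coloured points), grouped by role. Estimates lie between -0.76 and 0.83, and for 36 of the 39 genes the preparations fall on both sides of 0.

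In each role group the member with the smallest p is given in full. Palb2 had mean levels of 2.09, 2.80, 2.64 and 2.39 in Q1 cells of preparations 1 to 4, against 0.76, 1.40, 2.03 and 2.48 in Q4 cells. Q1 was higher in 3 of 4 preparations, and the ranges overlapped because Q4 cells of preparation 4 stood above the Q1 cells of preparations 1 and 4. The difference was 0.82 (SE 0.36, 95% interval 0.066 to 1.57, adjusted p = 0.258) and the slope 0.28 per quartile (SE 0.11, adjusted p = 0.188, limma). It was detected in 62.8% ± 12.3 of Q1 cells and 45.3% ± 17.03 of Q4 cells (SD, n = 4). Palb2 lies on chromosome 7 from 122107262 to 122132985 (GRCm38, minus strand), and its exons overlap a processed pseudogene on the opposite strand.

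Nbn, the end-sensing gene with the smallest p, had mean levels of 2.85, 4.27, 4.05 and 3.73 in Q1 cells, against 2.23, 3.09, 3.30 and 3.97 in Q4 cells. Here too preparation 4 went the other way from the rest, and the ranges overlapped. The slope was 0.22 per quartile (SE 0.11, adjusted p = 0.2996, limma), and 0.14 without preparation 2. Nbn lies on chromosome 4 from 15957925 to 15992589 (plus strand).

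Fance, of the core complex, had a low mean in every quartile and was detected in 72 of 300 cells. Its mean levels were 0.38, 0.67, 0.67 and 1.13 in Q1 cells, against 1.29, 0.91, 0.72 and 1.69 in Q4 cells. Q1 was lower in each preparation, but the ranges overlapped across preparations, and the difference of -0.44 did not pass (SE 0.28, adjusted p = 0.472, limma) and was -0.28 without preparation 1. It was detected in 18.5% ± 6.6 of Q1 cells and 30.1% ± 9.7 of Q4 cells (SD, n = 4).

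Fancd2 varied more between preparations than between quartiles. Its mean levels were 1.94, 3.02, 2.58 and 3.58 in Q1 cells, against 1.62, 1.48, 1.97 and 4.63 in Q4 cells. The Q4 value of preparation 4 was the highest of all, while the other Q4 values lay below 2. The difference was 0.35 (SE 0.48, adjusted p = 0.787, limma), with -0.042 without preparation 2 and 0.82 without preparation 4. Fancd2 lies on chromosome 6 from 113531682 to 113597017 (plus strand), where exons of Fancd2os overlap it.

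H2afx was lowest in Q2, with means of 1.48 ± 0.54 (Q1), 0.96 ± 0.52 (Q2), 1.81 ± 0.41 (Q3) and 1.75 ± 0.29 (Q4; SD, n = 4). In Q1 cells it stood at 0.76, 1.45, 1.65 and 2.05, against 1.38, 2.09, 1.71 and 1.83 in Q4 cells, and the ranges overlapped. The trend of -0.17 per quartile did not pass (SE 0.098, adjusted p = 0.389, limma). Between Q2 and Q4 it differed by -0.79 (SE 0.28, adjusted p = 0.262, limma). H2afx lies on chromosome 9 from 44334694 to 44336077 (plus strand).

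Hells stood far above the other members in every quartile. Q1 cells had 7.01, 7.75, 7.49 and 7.70, against 7.46, 7.77, 7.18 and 8.09 in Q4 cells. The ranges overlapped, and Q1 was the higher in preparation 3 alone. The difference of -0.14 had a 95% interval from -0.64 to 0.36 (SE 0.24, adjusted p = 0.845, limma), and it was -0.032 without preparation 1, -0.055 without preparation 4 and -0.29 without preparation 3.

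**Figure D4:**
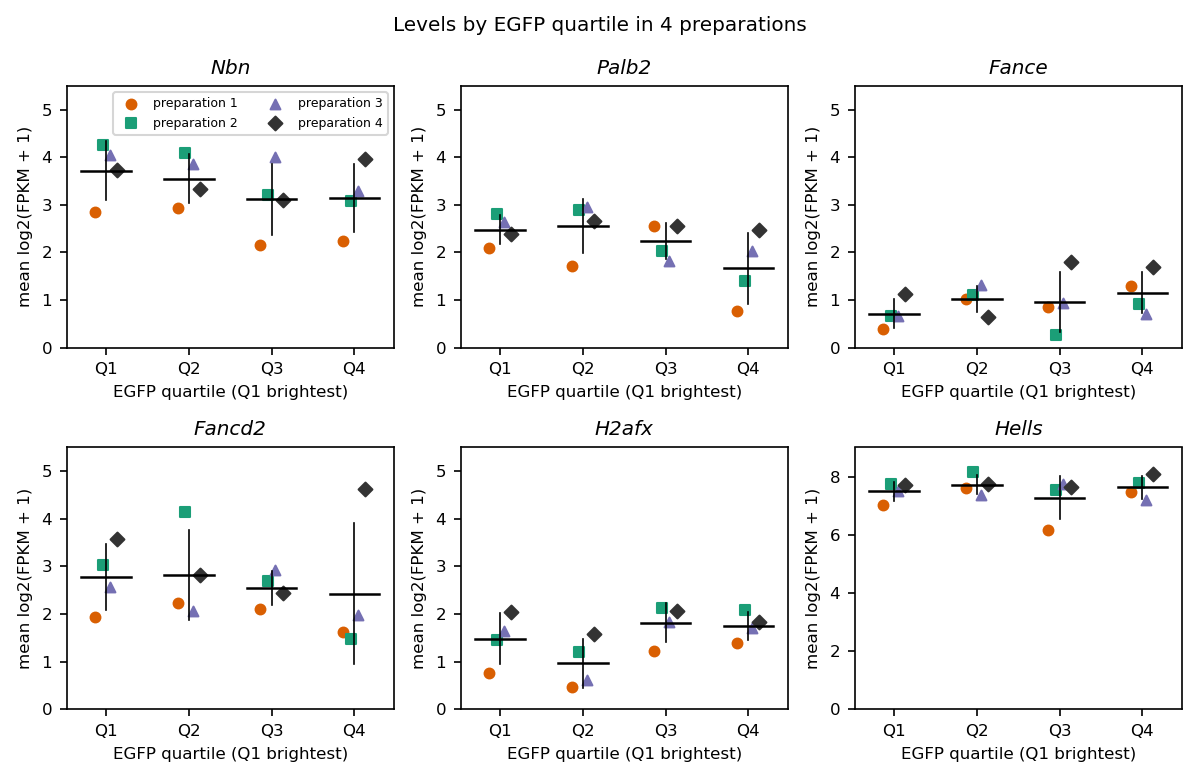
Mean log2(FPKM + 1) of Nbn, Palb2, Fance, Fancd2, H2afx and Hells in each EGFP quartile, from Q1 (brightest) on the left to Q4, with 1 point per preparation, the mean over preparations (horizontal bar) and the SD (vertical line, n = 4). Points of Q1 and Q4 overlap in all 6 panels, and the vertical axis is longer for Hells.

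In each of the other 5 pairs of quartiles 0 of 39 members passed (limma), where 0.0192% of all genes passed for Q1 against Q2, 0.98% for Q1 against Q3, 0% for Q2 against Q3, 0.307% for Q2 against Q4 and 0.00961% for Q3 against Q4. At an unadjusted p under 0.05 0 of 39 members passed for Q1 against Q2 (5.73% of all genes), 1 for Q1 against Q3 (12.3%), 2 for Q2 against Q3 (7.37%), 2 for Q2 against Q4 (11.4%) and 0 for Q3 against Q4 (6.58%). H2afx had the smallest p in 3 of them. Its largest difference was -0.85 for Q2 against Q3 (SE 0.28, adjusted p = 0.470, limma).

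The share of cells in which a gene was detected gave a second readout. Between Q1 and Q4 0 of 39 members passed on it (limma), where 1.94% of all genes passed, and 3 of 39 passed unadjusted (7.69%, against 14.5% of all genes). In its trend over quartiles 0 of 39 members passed (limma), where 3.12% of all genes passed, and 2 of 39 passed unadjusted (5.13%, against 15.5% of all genes). Trp53bp1 came closest. It was detected in 95.9% ± 5.6 of Q1 cells, 91.96% ± 7.49 of Q2, 86.03% ± 17.8 of Q3 and 82.1% ± 17.8 of Q4 cells (SD, n = 4), a slope of 4.74 percentage points per quartile (SE 1.43, adjusted p = 0.0665, limma). The share was higher in Q1 in 4 of 4 preparations, by 32.7, 10.0, 6.67 and 5.98 percentage points, with the largest in preparation 1. Its exons overlap Tubgcp4 on the opposite strand.

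From cell to cell, a few of the genes correlated with both the replication genes and the genes of G2 and mitosis. The mean of 33 S phase genes (none of them members, among them Mcm2 to Mcm7, Pcna and Rrm2) was set against each member over the cells of a preparation, and the 4 Spearman correlations were averaged. These values are descriptions without a p, and they share the library and its depth: the S phase mean itself correlated at 0.43 with the genes detected per cell. Chek1, the replication checkpoint kinase, and Hells had the highest correlations, each 0.40 on average, with ranges over preparations of 0.27 to 0.51 for Chek1 and 0.32 to 0.45 for Hells. Fancd2 followed at 0.38 (0.21 to 0.60), Brca1 at 0.36 (0.32 to 0.43) and Bard1 at 0.34 (0.28 to 0.42). These 5 reached at least 0.2 in every preparation, which is 12.8% of the 39 members, against 1.08% of all genes tested. The share was 10.3% among the 39 other recombination and Fanconi genes, 20.8% among 24 genes of G2 and mitosis, and 45.5% among the S phase genes, each set against the rest of its list. The choice of genes at 0.2 or more was made after the values were seen. Members were also detected more widely than all genes tested (median 59.7% against 48.3% of cells), and the part of this was not tested. With the mean of the G2 and mitosis genes, Hells correlated at 0.39, Fancd2 at 0.37, Chek1 and Bard1 at 0.27 and Brca1 at 0.23, and the S phase and G2 and mitosis means correlated with each other at 0.48.

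Brip1 (0.32) and Dmc1 (0.31) came next, but the lowest preparation was 0.199 for Brip1 and -0.0032 for Dmc1. With the number of detected genes partialled out, Chek1 stood at 0.35, Hells at 0.34, Brca1 at 0.32, Fancd2 at 0.30 and Bard1 at 0.26. The median over the 39 members was 0.16, against 0.061 over all genes tested and 0.31 over the S phase genes. With detected genes partialled out the median was 0.10 for the members and 0.0058 for all genes tested. At the other end, the lowest averages were those of Trp53bp1 (0.0065, -0.24 to 0.15 over preparations), Rad52 (0.025, -0.22 to 0.15), Fance (0.030, -0.036 to 0.073) and Atr (0.063, -0.043 to 0.18). Each of these had preparations on both sides of 0.

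**Figure D5:**
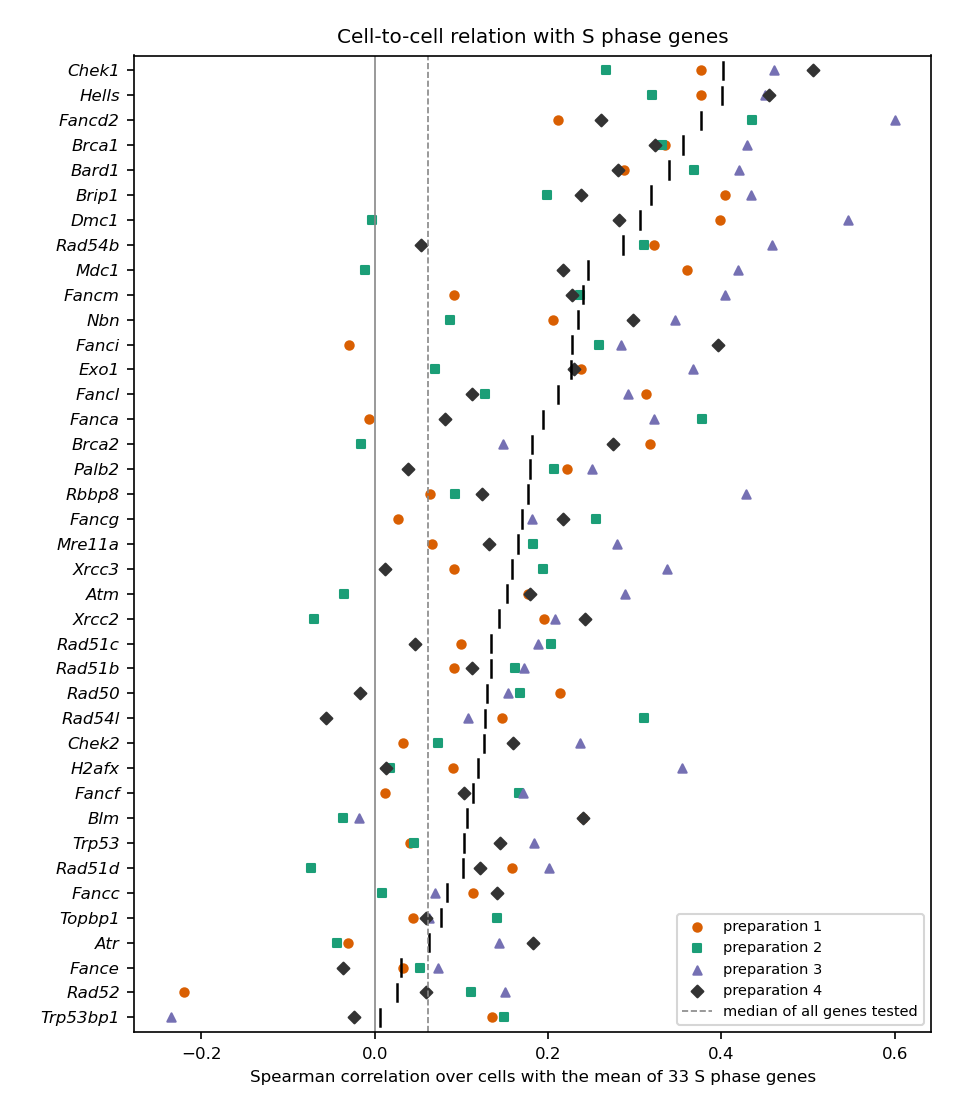
Spearman correlation over cells between each of the 39 tested genes and the mean of 33 S phase genes, in each of 4 preparations (points) and averaged (black bars), sorted by the average. Chek1, Hells, Fancd2, Brca1 and Bard1 lie at 0.21 or more in every preparation, and the dashed line is the median of all genes tested, 0.061.

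Chek1 lies on chromosome 9 from 36708482 to 36727065 (minus strand), Brca1 on chromosome 11 from 101488764 to 101551955 (minus strand) and Bard1 on chromosome 1 from 71027498 to 71103146 (minus strand), and exons of these 3 genes overlap no other annotated gene. Across quartiles none of the 5 moved past the threshold. Chek1 averaged 3.75 ± 0.24 (Q1), 3.86 ± 0.80 (Q2), 3.28 ± 0.84 (Q3) and 3.36 ± 0.91 (Q4; SD, n = 4). Brca1 averaged 2.81 ± 0.82 (Q1), 2.77 ± 0.97 (Q2), 2.45 ± 0.80 (Q3) and 2.69 ± 0.93 (Q4; SD, n = 4). The S phase mean stood at 4.06 ± 0.43 (Q1), 3.97 ± 0.46 (Q2), 3.83 ± 0.42 (Q3) and 3.81 ± 0.54 (Q4; SD, n = 4), with 0 of 33 genes past the threshold between Q1 and Q4 (limma, 4 unadjusted). The mean of 24 genes of G2 and mitosis stood at 4.43 ± 0.35 (Q1), 4.07 ± 0.66 (Q2), 4.02 ± 0.68 (Q3) and 4.52 ± 0.67 (Q4; SD, n = 4), with 0 of 24 past it (limma, 3 unadjusted).

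Genes whose products work in 1 complex were weakly correlated with each other over cells. Across all 741 pairs of members the median Spearman correlation within preparations was 0.052, and 14 pairs reached 0.2. The highest were Fancd2 with Hells (0.29), Chek1 with Hells (0.27), Fancd2 with Chek1 (0.27) and Bard1 with Fancd2 (0.27). Brca1 and Bard1, which form a heterodimer, correlated at 0.11 and were detected together in 120 of 300 cells, with Brca1 detected in 207 and Bard1 in 157. Fancd2 and Fanci, also a heterodimer, correlated at 0.090, and 74 cells held both. Rad50 and Nbn correlated at 0.00064 and Mre11a and Nbn at 0.019. At this depth, with many values at 0, such weak values do not describe how the genes are coupled.

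Other repair pathways were read from lists of names. Over all genes tested, 3.25% passed between Q1 and Q4 and 4.51% in the trend (limma). At an unadjusted p under 0.05 the shares were 16.3% and 17.7%. The counts of each list below are to be set beside these shares. Of 39 tested further genes of homologous recombination and the Fanconi pathway, Rad9a alone passed between Q1 and Q4. This subunit of the checkpoint clamp averaged 2.78 ± 0.42 in Q1 cells and 1.42 ± 0.17 in Q4 cells (SD, n = 4), which differ by 1.35 (SE 0.34, adjusted p = 0.0255, limma, higher in 4 of 4 preparations). In the trend 0 of these 39 passed, with 6 of 39 at an unadjusted p under 0.05. The call of Rad9a was lost in 8 of 11 alternatives, with adjusted p from 0.0241 to 0.237.

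Of 17 genes of end joining 0 passed between Q1 and Q4 (4 unadjusted), and in the trend the polymerase gene Poll was the 1 that did, with a slope of 0.31 per quartile (SE 0.090, adjusted p = 0.0442, limma). It lost its call in 9 of 11 alternatives. The end-joining genes had a median correlation with the S phase mean of 0.049, and 0 of 17 reached 0.2 in every preparation. Of 23 genes of mismatch and excision repair 0 passed in either test (limma), with 4 unadjusted in each.

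Of 17 tested targets of p53, 1 passed as higher and 1 as lower between Q1 and Q4. Pmaip1, which encodes the death-promoting protein NOXA, stood at 3.11 ± 0.77 in Q1 cells and 1.18 ± 0.84 in Q4 cells (SD, n = 4), which differ by 1.93 (SE 0.50, adjusted p = 0.0308, limma, higher in 3 of 4 preparations). Trp53inp1, a stress-induced cofactor of p53, stood at 3.61 ± 0.92 in Q1 cells and 4.84 ± 0.48 in Q4 cells (SD, n = 4), which differ by -1.23 (SE 0.32, adjusted p = 0.0340, limma, lower in 4 of 4 preparations). Each lost its call in 7 of 11 alternatives. In the trend, which uses the same cells, Pmaip1 and Trp53inp1 passed too, and lost their calls in 4 and 8 of 11 alternatives. The cell cycle inhibitor gene Cdkn1a passed as well, with a slope of 0.25 (SE 0.070, adjusted p = 0.0411, limma), which lost its call in 8 of 11 alternatives. Trp53 itself differed by 0.35 between Q1 and Q4 (SE 0.43, adjusted p = 0.759, limma) and correlated over cells with the mean of the 17 targets at 0.15 (-0.015 to 0.27 over preparations). With the number of genes detected in the cell, Trp53 correlated at 0.20 (0.12 to 0.28).

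Of 23 further meiotic recombination genes, Sycp3 alone passed between Q1 and Q4. This gene of the synaptonemal complex averaged 8.29 ± 0.34 in Q1 cells and 9.05 ± 0.37 in Q4 cells (SD, n = 4), which differ by -0.76 (SE 0.21, adjusted p = 0.0377, limma, lower in 4 of 4 preparations). It lost its call in 7 of 11 alternatives. None of the 23 passed in the trend, with 5 at an unadjusted p under 0.05.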

How the data were processed

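Single-cell C1 RNA-seq of 300 spermatogonia was used. The deposited table was taken to hold FPKM values per gene and cell: its header names no unit, and Cufflinks stands beside TopHat, FastQC and Picard in the submitters' processing notes (builds mm10 and GRCm38, no versions). Counts and read depths were not used here, so no interval from counting error is given. Summed over genes, a cell had 348305 to 682985 FPKM. The mean of log2(FPKM + 1) over cells was taken per preparation and quartile (15 to 22 cells each), for 16 means in all. The genes tested had 1 FPKM or more in 30 cells or more. They were fitted with limma 3.58.1 in R 4.3.3, with the quartile, or a step of 1 per quartile, and the preparation as a block, moderated variances (trend, robust) and Benjamini-Hochberg adjustment over 10411 genes. All quartiles shared 1 estimate of spread. The procedure was tested on simulated data. The share of detecting cells was fitted alike. SE is limma's, and SD is over preparations.

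The number in the title was read as the preparation, which then pairs its quartiles. Once quartile means were taken off, pairs of 1 preparation had correlations over genes of 0.0112 to 0.360, with a median of 0.129. Pairs that differed in both preparation and quartile had -0.249 to 0.137, with a median of -0.0431, so the ranges overlapped. Members and lists were chosen with earlier results of these data known. Named genes are all 40 members, with values in full for the smallest p in each role group, and up to 3 genes past the threshold per other list. The choice of 5 genes at 0.2 or more in every preparation was made after the values were seen. Gene bounds and exon overlaps are from GENCODE vM21 (GRCm38), promoters from RefSeq. Of the 33 names in the meiotic list 26 were matched, and the rest are not analysed here. Alternatives changed the block, the filter, the pseudocount, the centring and the averaging, added detected genes as a covariate, or left out a preparation.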

Additional observations from a re-analysis of the deposited data

Results flagged for a closer look

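In 102 sets of 4 preparations (levels and Q1 minus Q4 differences of the 39 members, and the quartile levels of the 6 members given in full), 8 held a preparation far from the other 3, where chance flags about 1 in 20. In 5 of the 8 it was preparation 1, which also had the fewest genes detected per cell; the part of that in these values was not tested. Preparation 1 stood low in level for Rad54l, at 1.199 against 2.64 to 2.77 in the others, for Rad52, at 1.68 against 2.13 to 2.17, and for Xrcc2, at 1.15 against 1.49 to 1.53. It stood low for Hells in Q3, at 6.16 against 7.55 to 7.73, and for Fancl its Q1 minus Q4 difference was -1.14 against 1.04 to 1.37. Preparation 4 stood high for Dmc1, at 3.43 against 2.32 to 2.48, and for Fancd2 in Q4, at 4.63 against 1.48 to 1.97. For Blm its Q1 minus Q4 difference was -1.36 against 0.38 to 0.64.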

How the results depend on the processing

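None of the 39 tested members passed in any of 30 alternatives of the 3 member counts (Q1 against Q4, trend, detecting share), nor in the 11 alternatives of the other 5 pairs. Fancb was left out of all these counts, also of those without the filter on low values. Without the replicate block, 99 genes of the whole table passed for Q1 against Q4 (338 with it), 177 for the trend (470) and 77 for the trend of the detecting share (325). Without the filter on low values the counts were 177 and 274, with detected genes as a covariate 135, 197 and 122, and from the log2 of mean FPKM 80 and 113. Leaving out 1 preparation gave 137 to 270 for Q1 against Q4, 176 to 354 for the trend and 104 to 161 for the share, lowest without preparation 3 in each. Centring on the median gene took the median difference of all genes from 0.099 to -0.078 and that of the members from 0.068 to -0.11, and the share of higher calls from 83.7% to 57.8% for Q1 against Q4 and from 83.6% to 54.4% for the trend. From the log2 of mean FPKM, 68.8% of calls for Q1 against Q4 were higher, and 72.1% of trend calls with detected genes as a covariate. With that covariate the members' median was -0.29, against -0.013 for all genes, and without a covariate it was -0.10 without preparation 3 (all genes 0.079) and 0.29 without preparation 4 (all genes 0.16). Of 132 values of the 6 members given in full, 122 kept their direction and 0 passed. The other 10 turned. Fancd2 turned with the covariate (-0.39, trend -0.080) and without preparation 2, where leaving out 1 preparation gave -0.042 to 0.82 (trend -0.024 to 0.27). The Fance trend turned from the log2 of mean FPKM (0.0054). The Hells trend turned after centring (-0.055), with the covariate (-0.083), from the log2 of mean FPKM (-0.032) and without preparation 2 (-0.013) or 3 (-0.014), with 0.040 at most. The cause was not tested.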
